A study of Rattus norvegicus with 69 samples.

Results

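Sham-operated rats and saline-infused rats are the control groups of the study, the sham-group for gastric bypass surgery and the saline-group for peptide treatment, and their liver mRNA was compared here with each other. Members were taken by their labels, which gave 12 libraries of the sham-group and 8 of the saline-group out of 69 libraries in the series. All 20 animals were adult male Wistar rats made obese on a high-fat diet, with free choice between a high-fat and a low-fat diet afterwards and an overnight fast before the liver was frozen. The sham-group had a sham operation, and the saline-group had isotonic saline from an osmotic minipump and by subcutaneous injection, with no peptide. The labels assign 5 sham and 5 saline libraries to batch B, and 7 sham and 3 saline libraries to batch A, without saying what a batch is. The study's methods state that 3 saline animals were fed for a longer period, and the labels do not say which. Batch A also holds 3 saline libraries. If these are the same animals, feeding time cannot be told apart from the group in batch A. The part of feeding time in any value was not tested. Each library is labelled as a separate sample, with nothing on litter or cage, so the p-values measure the spread between these samples.

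The liver stores and exports lipid, makes bile acids and most plasma proteins, and holds resident macrophages (Kupffer cells) that take up material from the gut blood. Its hepatocytes carry an extensive endoplasmic reticulum (ER), in which secreted proteins are folded with the help of chaperones. An operation or an implanted device can alter feeding, inflammation and the acute phase response, in which hepatocytes change their output of plasma proteins. Fat synthesis in the liver follows insulin and recent feeding through the transcription factors SREBP-1c and ChREBP.

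The 20 libraries held 14052862 to 25424858 counts, and the labelled tissue was borne out by its markers, with the hepatocyte gene Alb at 50900 to 138000 CPM (counts scaled by the library size and its TMM factor) in sham and 70000 to 119000 CPM in saline libraries. Sham replicate 12 and saline replicate 9, both of batch B, stood apart from the rest. Their log2 CPM values deviated from the mean of the other batch B libraries with an SD of 1.3 and 0.84 across genes, against 0.405 to 0.538 for the other 8. The scaling factor of sham replicate 12 was 0.755. Values without these 2 libraries, a setting chosen after seeing the data, are given beside the main lists and the genes that moved most. Across genes, the median correlation between a sham and a saline library was 0.963 in batch B, against 0.956 between sham libraries and 0.966 between saline libraries. In batch A the values were 0.976 between the groups, 0.975 within the sham-group and 0.979 within the saline-group. Libraries of different control groups were thus about as alike as libraries of the same group.

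**Figure D1:**
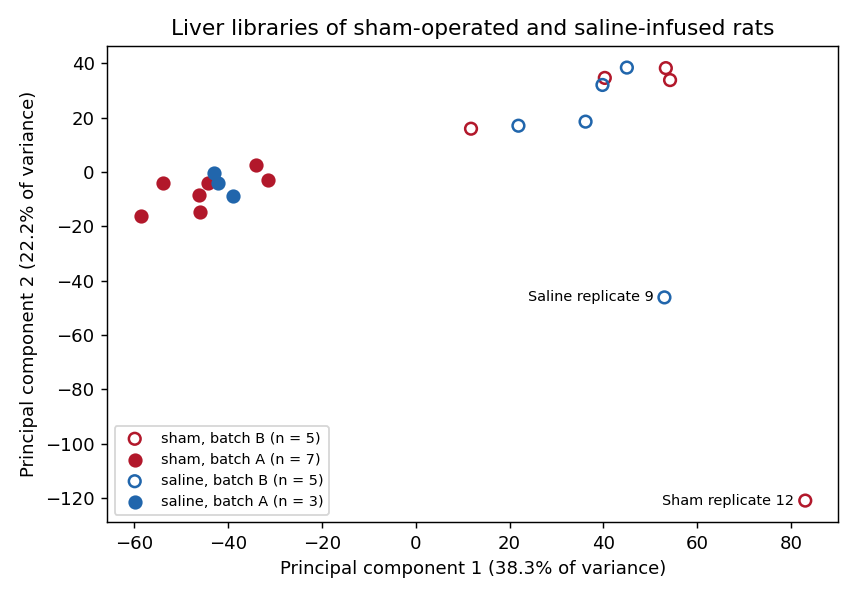
Principal components of log2 CPM for the 20 libraries. Component 1 (horizontal axis, 38.3% of variance) parts batch B (open) from batch A (filled), component 2 (vertical axis, 22.2%) sets sham replicate 12 and saline replicate 9 apart, and sham (red) and saline (blue) libraries lie among each other within each batch.

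No gene passed the test between the sham-group and the saline-group. Of 15016 genes tested with edgeR's quasi-likelihood test and batch as a term, 0 (0%) had an adjusted p under 0.05, and the lowest adjusted p was 0.9999. At an unadjusted p under 0.05 there were 243 genes (1.62%), of which 153 (1.02%) were higher and 90 (0.599%) lower in sham. This share is below the one that a threshold of 0.05 marks where no gene differs, so these genes are not a set of hits. DESeq2 called 0 genes with 414 at an unadjusted p under 0.05, and limma-voom with quality weights called 0 with 552 and a lowest adjusted p of 0.436. Without sham replicate 12 and saline replicate 9, edgeR called 0 of 15130 genes, with 362 at an unadjusted p under 0.05.

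The size of a difference that these libraries could have missed varied with the gene. The median standard error of a log2 fold change was 0.197 (quartiles 0.15 and 0.265). For 13251 genes (88.2%) the 95% interval lay within a log2 fold change of 1 on either side of 0, and for 8772 genes (58.4%) within 0.585, which is a 1.5-fold difference. Without the 2 libraries that stood apart the median standard error was 0.146 and the share within 1 was 92.5%. A log2 fold change of at least 1 in either direction was fitted for 80 genes and of at least 0.585 for 527. The median over all genes was 0.02. For genes outside these intervals a moderate difference was not detectable with this spread, and none is shown to be absent.

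Each batch alone gave the same count. In batch B (5 sham and 5 saline libraries) 0 of 14347 genes passed in edgeR, with 322 at an unadjusted p under 0.05 and a lowest adjusted p of 0.9998. Among these 322 genes, 179 (1.25%) were higher in sham. In batch A (7 sham and 3 saline libraries) 0 of 15440 passed, with 591 at an unadjusted p under 0.05, 283 (1.83%) higher and 308 (1.99%) lower in sham, and a lowest adjusted p of 0.213. DESeq2, run as an alternative, called 2 genes in batch B and 15 in batch A. The difference between the sham effect in batch B and that in batch A was tested as an interaction, and 0 genes passed in edgeR, with 644 (4.29%) at an unadjusted p under 0.05 and 371 (2.47%) with the larger value in batch B. The DESeq2 interaction model called 3.

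The batches themselves differed far more than the groups. In the same model 3711 genes (24.7%) were higher and 2999 (20%) lower in batch B than in batch A at an adjusted p under 0.05. Of 77 cytosolic ribosomal protein genes 64 were higher in batch B (median log2 fold change 0.67) and 0 lower, and of 75 nuclear genes of the respiratory chain 56 were higher (0.72) and 3 lower. Of 21 circadian clock genes 13 were lower in batch B (median -0.86) and 3 higher. Crp, the acute phase C-reactive protein, was lower in batch B than in batch A, with a log2 value of -3.0 (adjusted p = 5.21e-07 from edgeR). The percentage of counts on mitochondrial genes was 0.146% to 0.547% in batch B and 0.0417% to 0.119% in batch A.

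Plin3, a lipid droplet coat protein, had the lowest p of all genes tested. Plin3 (gene ID 316130, Rnor_6.0 chromosome 9, 10769739 to 10781659) was at 6.44 CPM in the lowest sham library, 12.5 at the median and 31.2 in the highest, against 4.0, 9.80 and 13.2 CPM in saline libraries. In batch B the sham libraries held 12.5, 18.0, 12.6, 19 and 31.2 CPM and the saline libraries 10.3, 10.4, 9.46, 10.1 and 13.2 CPM, where only the highest saline library lay above the lowest sham libraries. The log2 fold change was 0.78 (standard error 0.199, unadjusted p = 0.000781, adjusted p = 0.9999 from edgeR). It was 0.78 in batch B, 0.76 in batch A, 0.69 without the 2 libraries that stood apart and 0.63 in batch B without them. Over 35 alternatives it lay between 0.60 (no batch term) and 0.92 (without saline replicate 2). Plin3 was also higher in batch B than in batch A, by 0.93 on the log2 scale (adjusted p = 0.000538).

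The other genes with the lowest p on the higher side were of mixed kinds, and none passed the adjusted test. Col1a1, the main chain of type I collagen (gene ID 29393, chromosome 10, 82745801 to 82762790), was at 1.82, 7.83 and 19.4 CPM in the lowest, median and highest sham library, against 2.41, 3.73 and 8.97 CPM in saline. Its groups overlapped and its log2 fold change was 1.05 (standard error 0.307, unadjusted p = 0.00245), 0.89 in batch B and 1.25 in batch A. Dennd2a, a regulator of Rab GTPases, was at 9.25, 14.3 and 18.7 CPM in the lowest, median and highest sham library, against 8.01, 10.1 and 14.4 CPM in saline, a log2 fold change of 0.52. The groups overlapped in batch B, and in batch A the 7 sham libraries (11.1 to 18.7 CPM) lay above the 3 saline libraries (8.44 to 10.3 CPM). The share of all genes whose groups do not overlap within a batch was not counted. A gap of this kind, here and below, is a description only. Myh14, a nonmuscle myosin heavy chain, had a fitted value of 1.14, Afg3l2, a subunit of a mitochondrial protease, 0.32, Tm7sf3 0.36 and Fam184a 0.62. The unnamed loci LOC103692723 and LOC102546876 had the largest fitted values, 2.18 and 2.65, from low levels with medians of 2.95 and 3.36 CPM in sham and 0.881 and 0.941 CPM in saline libraries.

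On the lower side Abcc9, a regulatory subunit of potassium channels found in smooth muscle and vessel walls, had the lowest p. Its libraries ranged from 2.55 to 14.4 CPM in sham (median 8.90) and from 4.12 to 17.2 CPM in saline (median 9.34), and its log2 fold change was -0.63 (standard error 0.179, unadjusted p = 0.00193), -0.88 in batch B and -0.38 in batch A. Pipox, a peroxisomal oxidase of pipecolic acid, was at 85.9 to 165 CPM in the 5 sham libraries of batch B, below all 5 saline libraries (178 to 282 CPM). The fitted value was -0.99 in batch B but -0.12 in batch A, where the groups overlapped, and -0.59 over both. Mcur1, which takes part in mitochondrial calcium uptake, had a log2 fold change of -0.42 and Tdrd15, a Tudor domain protein, one of -0.50. Cidea, a protein of lipid droplet fusion, was at 0.608, 2.10 and 5.69 CPM in the lowest, median and highest sham library, against 1.97, 4.59 and 15.5 CPM in saline, with a log2 fold change of -1.08. Fam179a had -0.81 and the antisense transcript Thumpd3-as1 -0.66, counted by strand. LOC108351673 and LOC108351672 had nearly equal CPM in each library and log2 fold changes of -1.0 and -0.99, and counting divided any read that matched both, so they are not taken as separate results.

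**Figure D2:**
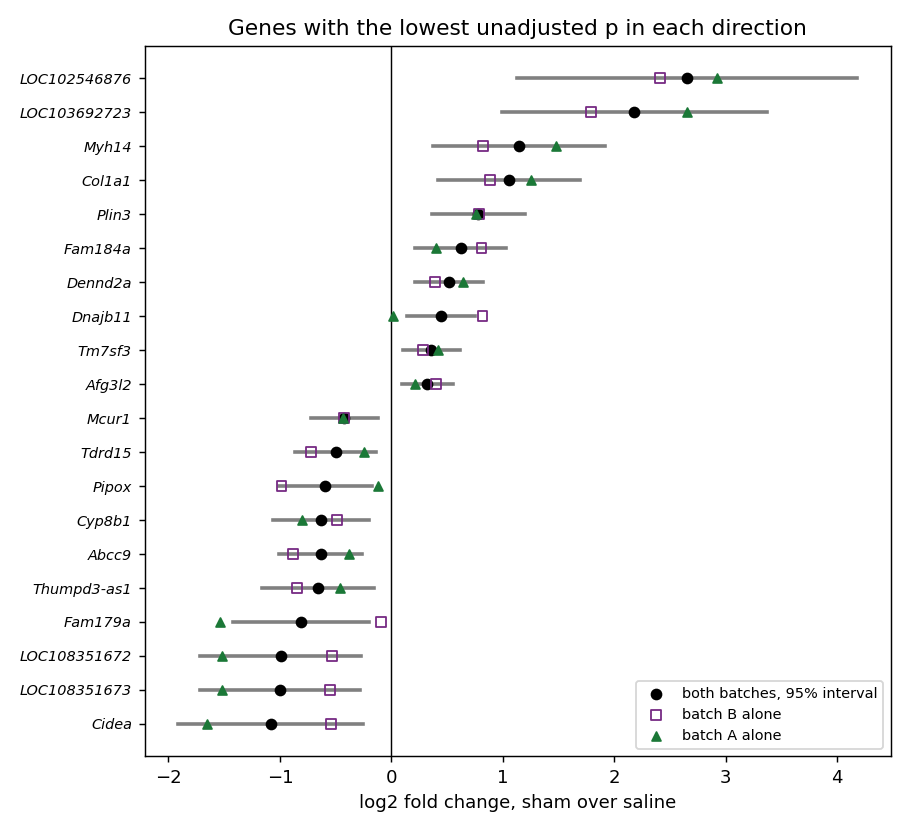
Log2 fold change of sham over saline (horizontal axis) for the 10 genes with the lowest unadjusted p in each direction, with the 95% interval over both batches (grey), the value in batch B alone (open squares) and in batch A alone (triangles). Squares and triangles of Plin3 nearly coincide at 0.78 and 0.76, while those of Dnajb11 and Pipox lie apart.

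Genes of fatty acid and triglyceride synthesis were mostly on the higher side in sham livers, without any passing the adjusted test. Of 24 members tested 21 had a positive log2 fold change, against 55.6% of all genes tested, and the median was 0.35, against 0.02 over all genes. At an unadjusted p under 0.05, 4 members were higher, against 1.02% of all genes, and 0 lower, against 0.599%. Without the 2 libraries that stood apart the median was 0.27 with 19 positive members. In that setting 2 were higher at an unadjusted p under 0.05, against 196 of 15130 genes. Without sham replicate 12 alone the median was 0.20. In batch B the median was 0.22, with 17 of 24 positive, against 7708 of 14347 genes, and 0 higher at an unadjusted p under 0.05. In batch A it was 0.41, with 21 of 25 positive, against 8097 of 15440 genes. At an unadjusted p under 0.05, 8 of 25 were higher in batch A, against 1.83% of all genes there. Leaving out 1 library of batch A gave 6 to 13 such members, with 13 without sham replicate 2 and 11 without sham replicate 1 or 7. These genes share their regulators and vary together between rats, so the members are not separate evidence.

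Pnpla3, a lipid droplet protein whose mRNA follows feeding and SREBP-1c, varied most. In batch B Pnpla3 (gene ID 362972, chromosome 7, 125034760 to 125056165) was at 179, 2.07, 4.83, 1.37 and 10.4 CPM in sham and 0.657, 0.41, 25.8, 3.47 and 6.48 CPM in saline libraries. In batch A it ranged from 0.36 to 22.9 CPM in sham (median 2.06), and the 3 saline libraries held 0.717, 0.25 and 0.38 CPM. The groups overlapped in both batches, and the fitted log2 fold change of 2.96 (standard error 1.07, unadjusted p = 0.0114) rests largely on sham replicates 3, 4 and 8, at 22.9, 18.7 and 179 CPM.

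Fasn, the fatty acid synthase (gene ID 50671, chromosome 10, 109987735 to 110005901), separated the groups in batch A only. In batch B the 5 sham libraries were at 145, 35.4, 36.7, 23.9 and 36.9 CPM and the 5 saline libraries at 36.1, 26.8, 119, 26.2 and 26.9 CPM, with 1 high library in each group. In batch A the sham libraries ranged from 31.2 to 144 CPM (median 81.5) and the saline libraries were at 26.6, 21.4 and 29.5 CPM. All 7 sham libraries lay above the 3 saline libraries there. The log2 fold change was 0.83 over both batches (standard error 0.427, unadjusted p = 0.0658), 0.21 in batch B and 1.61 in batch A (unadjusted p = 0.00163, adjusted p = 0.793 from edgeR). The difference of -1.37 between these values had an unadjusted p of 0.0903.

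Scd, the stearoyl-CoA desaturase, pointed in opposite directions in the batches. Its log2 fold change was -1.04 in batch B, where sham libraries held 230 to 1300 CPM and saline libraries 412 to 2760 CPM, and 2.14 in batch A, where sham libraries held 347 to 1580 CPM and saline libraries 259, 268 and 15.7 CPM. The difference between the values was -3.15 (unadjusted p = 0.00417), which did not pass the adjusted test. Srebf1, which encodes SREBP-1c, was at 146, 236 and 309 CPM in the lowest, median and highest sham library, against 90.0, 178 and 242 CPM in saline. The fitted value on the log2 scale was 0.41 (standard error 0.179, unadjusted p = 0.0324), 0.51 in batch B and 0.27 in batch A, and it was 0.27 over both without the 2 libraries that stood apart. Acacb, the mitochondrial acetyl-CoA carboxylase, had 0.76 and Fads2, a fatty acid desaturase, 0.56, and both were at an unadjusted p under 0.05. Acly, which supplies cytosolic acetyl-CoA, had 0.61. Mlxipl, which encodes ChREBP, had a log2 fold change of 0.00, and Dgat2, which makes triglyceride, one of 0.02.

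**Figure D3:**
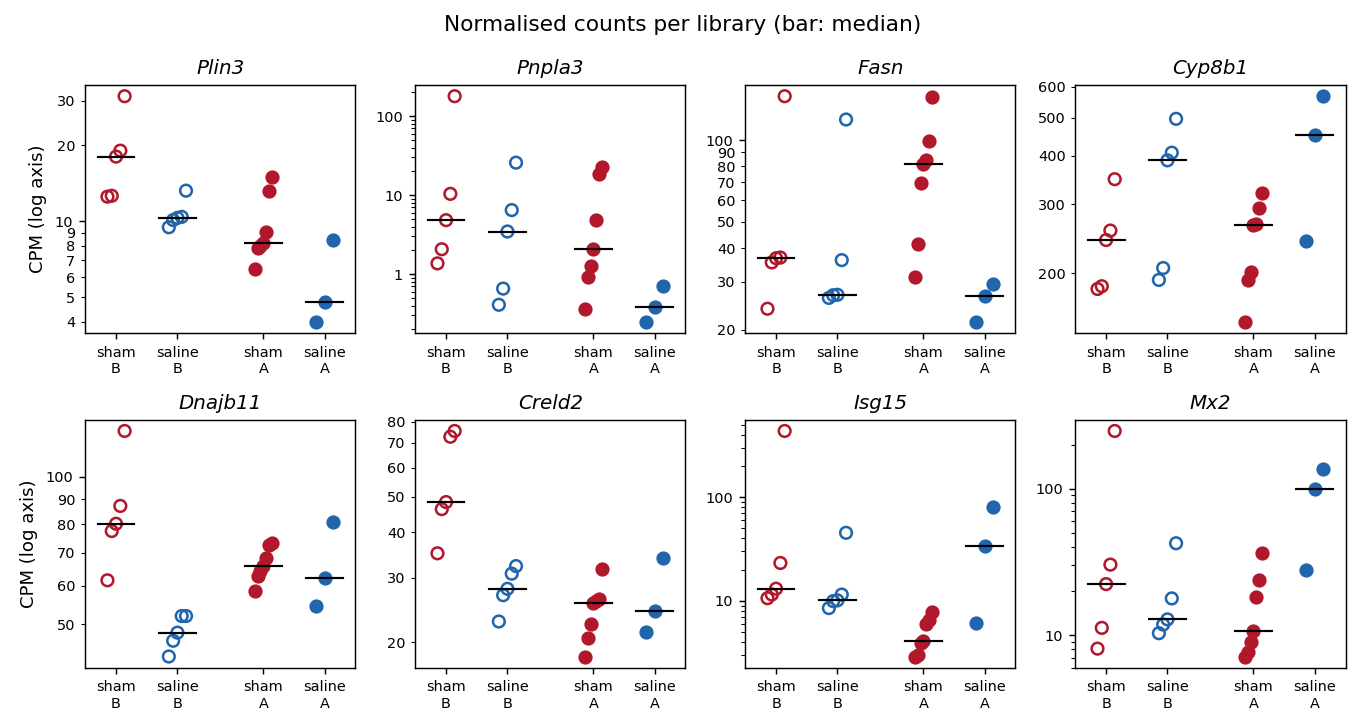
CPM (vertical axes, log scale) of 8 genes in each library of the sham-group (red) and the saline-group (blue), in batch B (open, left) and batch A (filled, right), with the median as a bar. Dnajb11 and Creld2 do not overlap between groups in batch B, Fasn does not in batch A, and Isg15 at 437 CPM marks sham replicate 9. The share of all genes without overlap was not counted.

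Genes of ER chaperones and of the unfolded protein response, by which cells raise folding capacity when unfolded protein builds up in the ER, were mostly on the higher side in the sham libraries of batch B and near 0 in batch A, without any passing the adjusted test. Of 26 members tested, 22 had a positive log2 fold change over both batches, against 55.6% of all genes tested, with a median of 0.26. At an unadjusted p under 0.05, 6 members were higher, against 1.02% of all genes, namely Dnajb11, Hyou1, P4hb, Creld2, Hsp90b1 and Sdf2l1. In batch B the median was 0.42, with 22 positive members, against 7708 of 14347 genes. There 9 were higher at an unadjusted p under 0.05, against 1.25% of all genes. Leaving out 1 library gave 4 to 9 such members, with 4 without saline replicate 5 and 5 without sham replicate 11 or saline replicate 6, 7 or 9. In batch A the median was 0.00 with 13 positive members and 0 at an unadjusted p under 0.05. The difference between batches reached an unadjusted p under 0.05 for 8 of 26 members, each with the larger value in batch B, against 2.47% of all genes, and none passed the adjusted test.

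Sham replicate 12 carried part of this. Without it the batch B median was 0.23 and 6 members were at an unadjusted p under 0.05. Without sham replicate 12 and saline replicate 9 the median over both batches was 0.08. In that setting 5 members were higher at an unadjusted p under 0.05, against 196 of 15130 genes. In batch B without these 2 libraries the median was 0.21, with 19 of 26 positive. There 7 members were higher at an unadjusted p under 0.05, against 262 of 14377 genes. The list's summed level in batch B was 4310, 5650, 5470, 6020 and 10400 CPM in sham and 3890, 4140, 4230, 4960 and 5190 CPM in saline libraries, with 10400 in sham replicate 12. In batch A the sums were 5680 to 6720 CPM in sham and 5540, 5400 and 7000 CPM in saline libraries.

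Dnajb11, a cochaperone of the ER chaperone BiP (gene ID 360734, chromosome 11, 81741342 to 81757806), did not overlap between the groups of batch B. Its 5 sham libraries held 61.5, 87.2, 77.5, 80.2 and 124 CPM and its 5 saline libraries 46.3, 48.1, 43.0, 52.0 and 52.0 CPM. In batch A it was at 58.4 to 73.3 CPM in sham and at 54.6, 62.2 and 80.8 CPM in saline libraries, which overlapped. The log2 fold change was 0.45 over both batches (standard error 0.146, unadjusted p = 0.00595), 0.82 in batch B and 0.01 in batch A, a difference of 0.82 (unadjusted p = 0.00258). Without the 2 libraries that stood apart it was 0.33.

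Creld2, a disulfide isomerase-like protein induced by ER stress, had the same pattern. It was at 35.0, 72.8, 48.3, 46.2 and 75.5 CPM in the sham and 22.8, 32.3, 26.9, 30.8 and 28.0 CPM in the saline libraries of batch B, with no overlap. In batch A it was at 18.3 to 31.6 CPM in sham and 21.4, 24.4 and 33.9 CPM in saline libraries. Its log2 fold change was 0.96 in batch B and -0.12 in batch A, a difference of 1.10 (unadjusted p = 0.00148). Hyou1, a large ER chaperone, had 0.79 in batch B and 0.10 in batch A, and Sdf2l1, an ER luminal protein that binds BiP cochaperones, 1.14 and -0.17. Sdf2l1 was at 0.71 in batch B without the 2 libraries that stood apart. Hspa5, which encodes BiP itself, had 0.60 in batch B and -0.03 in batch A. Sham replicate 12, the highest library for Hsp90b1 at 1520 CPM, was the lowest sham library for Hspa5 at 444 CPM, so this library did not hold all chaperone mRNAs high. Derl3, an ER degradation factor outside the list and chosen after its values were seen, was at 1.46, 7.44, 2.08, 1.85 and 2.4 CPM in the sham and 0.716, 0.703, 0.485, 0.448 and 0.455 CPM in the saline libraries of batch B. These groups did not overlap, and its log2 fold change was 2.42 in batch B and -0.17 in batch A, a difference of 2.59 (unadjusted p = 0.000618). The sensors of the pathway were mixed, with log2 fold changes in batch B of -0.41 for Ern1, which encodes IRE1, 0.57 for Eif2ak3, which encodes PERK, and 0.23 for Atf6. The transcription factor Atf4 had -0.54. Without the 2 libraries that stood apart these values in batch B were -0.33 for Ern1, 0.16 for Eif2ak3, -0.02 for Atf6 and -0.23 for Atf4.

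Promoters of several of these genes hold the ER stress element, a motif through which ATF6 and XBP1 act on chaperone genes, and the sites are shown for members with high values in the sham libraries of batch B and for Xbp1, which lacked them. The letters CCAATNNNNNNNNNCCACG were searched on both strands in RefSeq promoters of the rat assembly GRCr8, from 250 bases before to 50 bases after the start. Of 21 list members with an entry 7 held the element, against 0.0657% of 33469 promoters (22 of them). The sites below are on the gene's strand, with the motif in capitals, and in Creld2 and Derl3 it lies on the opposite strand and reads as its reverse complement.
Hspa5, GRCr8 chr3:38452961-38453003, plus strand: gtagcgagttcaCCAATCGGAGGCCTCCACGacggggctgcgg
Hsp90b1, GRCr8 chr7:23012439-23012481, minus strand: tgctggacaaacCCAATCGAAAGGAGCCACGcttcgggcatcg
Creld2, GRCr8 chr7:121789227-121789269, plus strand: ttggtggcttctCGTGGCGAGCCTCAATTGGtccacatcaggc
Derl3, GRCr8 chr20:12766589-12766631, minus strand: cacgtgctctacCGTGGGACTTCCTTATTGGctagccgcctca
Xbp1, GRCr8 chr14:84604546-84604588, plus strand: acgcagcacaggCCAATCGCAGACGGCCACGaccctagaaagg

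Of these genes Hspa5, Hsp90b1, Creld2 and Derl3 had log2 fold changes of 0.60, 0.84, 0.96 and 2.42 in batch B, and Xbp1, with the same element, had -0.45. The other members with the element were Calr and Canx, ER chaperones of glycoproteins, and Dnajc3, a cochaperone of BiP, with 0.68, 0.97 and 0.14. In batch B Xbp1 was at 0.10 and Canx at 0.16 without the 2 libraries that stood apart. Dnajb11, Hyou1 and Sdf2l1, at 0.82, 0.79 and 1.14, held no match in this window.

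Interferon-stimulated genes, which cells switch on in response to type I or type II interferon, had opposite signs in the batches. Over both batches 22 of 29 members tested were negative, against 44.4% of all genes, and the median was -0.13. At an unadjusted p under 0.05 there were 0 higher and 1 lower, Ifit1, against 0.599% of all genes lower. In batch B the median was 0.36, with 25 of 27 members positive, against 7708 of 14347 genes. There 2 were higher at an unadjusted p under 0.05, against 1.25% of all genes. In batch A the median was -0.66, with 28 of 29 negative, against 7343 of 15440 genes. There 17 were lower at an unadjusted p under 0.05, against 1.99% of all genes. The difference between batches had an unadjusted p under 0.05 for 10 members, each with the larger value in batch B, against 2.47% of all genes, and none passed the adjusted test.

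A few libraries held the highest values of these genes. Isg15, an interferon-induced ubiquitin-like protein (gene ID 298693, chromosome 5, 173624862 to 173629124), was at 11.5, 437, 10.6, 23.2 and 13.1 CPM in the sham libraries of batch B, with 437 CPM in sham replicate 9, and at 45.4, 10.1, 11.5, 8.51 and 9.94 CPM in the saline libraries, with 45.4 CPM in saline replicate 5. In batch A the sham libraries ranged from 2.90 to 7.87 CPM (median 4.06), and saline replicates 2, 3 and 4 were at 33.6, 80.3 and 6.12 CPM. The third saline library of batch A thus lay within the sham range, and the other 2 above it. The log2 fold change was 2.55 in batch B and -3.02 in batch A (adjusted p = 0.299 from edgeR), a difference of 5.56 (unadjusted p = 0.000432, adjusted p = 0.987). Without saline replicate 4 the batch A value was -3.54 and passed the test (adjusted p = 0.00766 from edgeR), the 1 gene called in that setting. This setting removes the saline library that lay within the sham range, so the pass is no support for a difference. Leaving out sham replicate 1 or saline replicate 3 also called 1 gene each, LOC102546489 and LOC102548914.

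Mx2, an interferon-induced GTPase, followed the same libraries. It was at 22.3, 248, 11.2, 30.3 and 8.08 CPM in the sham and 42.4, 10.3, 17.8, 12.8 and 11.8 CPM in the saline libraries of batch B. In batch A it ranged from 7.14 to 36.5 CPM in sham, and the saline libraries held 137, 100 and 27.9 CPM. Irf7, which amplifies the interferon response, was highest at 97.9 CPM in sham replicate 9, and at 89.4, 77.8 and 73.6 CPM in saline replicates 5, 2 and 3. Its log2 fold change was 0.05 in batch B and -1.58 in batch A. Ifit1, an RNA-binding interferon-induced protein, was at 0 in sham replicates 6, 8 and 10 and saline replicates 6 and 8, and at 59.8 CPM in saline replicate 2. Without sham replicate 9, 12 of 28 members were positive in batch B with a median of -0.06, so the sign there rested on that library. Leaving out any 1 library of batch A kept 25 to 28 of 29 members negative there. The batch A median was -0.30 without saline replicate 2, with 9 members at an unadjusted p under 0.05, and -0.88 without saline replicate 4, with 20.

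Promoter sites of this list are shown for Irf7 and Oas1a, which were high in saline replicates 2 and 3 and in sham replicate 9, and for Ifit3 and Rsad2, which followed these libraries only in part. The core of the interferon-stimulated response element, the letters GAAANNGAAA, was searched on both strands in the same RefSeq promoters, and 13 of 19 members with an entry held it, against 3.92% of all promoters. The motif is in capitals, on the gene's strand, and in Irf7, Ifit3 and Rsad2 it reads as its reverse complement.
Irf7, GRCr8 chr1:205800071-205800104, minus strand: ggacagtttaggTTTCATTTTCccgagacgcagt
Oas1a, GRCr8 chr12:41330413-41330446, plus strand: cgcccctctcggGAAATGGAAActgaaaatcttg
Ifit3, GRCr8 chr1:241527270-241527303, plus strand: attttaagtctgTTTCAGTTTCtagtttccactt
Rsad2, GRCr8 chr6:48788246-48788279, minus strand: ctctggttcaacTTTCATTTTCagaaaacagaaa

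Oas1a, a sensor of double-stranded RNA, stood at 0.59 in batch B and -1.74 in batch A on the log2 scale, Rsad2, which encodes the antiviral enzyme viperin, 0.75 and -0.54, and Ifit3 -0.07 and -0.46. Rsad2 was at 12.2 CPM in sham replicate 9, 9.69 in sham replicate 12 and 7.69 in saline replicate 2, but at 2.29 CPM in saline replicate 3. Ifit3 was at 6.26, 6.08 and 6.02 CPM in sham replicates 7 and 9 and saline replicate 2, and at 3.54 CPM in saline replicate 3. The match is a description of the sequence and was present in members with large and with small values.

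**Figure D4:**
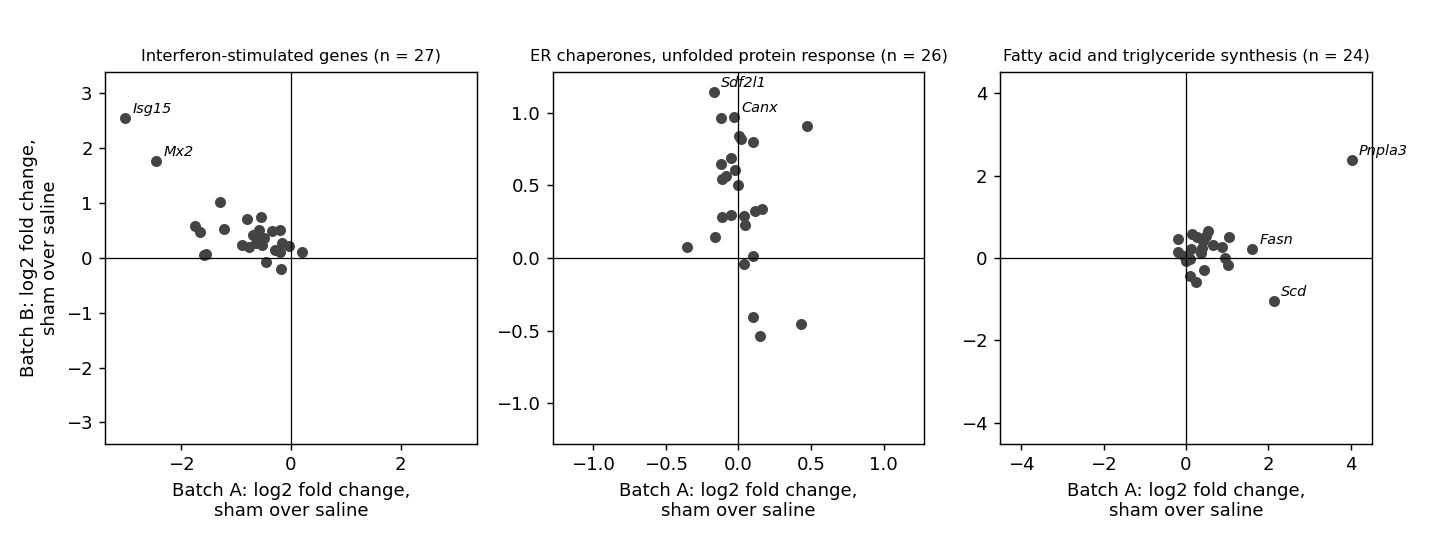
Log2 fold change of sham over saline in batch B (vertical axes) against that in batch A (horizontal axes) for each member tested in both, in 3 gene lists. Interferon-stimulated genes lie mainly at the upper left, with 28 of 29 negative in batch A and 25 of 27 positive in batch B, ER genes spread upwards with 13 of 26 positive in batch A, and Scd stands at 2.14 in batch A and -1.04 in batch B.

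Markers of Kupffer cells and macrophages were mostly on the lower side in batch A, as were the interferon-stimulated genes. Of 17 markers 14 were negative over both batches, against 44.4% of all genes tested (median -0.18), with 0 at an unadjusted p under 0.05. The median was -0.03 in batch B and -0.31 in batch A, where 3 were lower at an unadjusted p under 0.05, against 1.99% of all genes there. The summed level of the list was 536, 454, 510, 839 and 863 CPM in sham and 669, 414, 485, 617 and 621 CPM in saline libraries of batch B, and 353 to 750 CPM in sham and 916, 527 and 521 CPM in saline libraries of batch A. Marco, a scavenger receptor of macrophages, was at 46.3 CPM in saline replicate 2, above every other library. The part of these cells in the interferon values was not tested, and in whole liver fewer cells of a type cannot be told apart from less RNA per cell.

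The genes that the study also measured by RT-qPCR did not differ detectably. Il1b, a macrophage cytokine, was at 5.23 ± 2.34 CPM in sham (SD, n = 12) and 6.11 ± 2.32 in saline livers (SD, n = 8), a log2 fold change of -0.10 (standard error 0.215, 95% interval -0.55 to 0.35). Fgf21, a hepatokine of fasting and protein intake, was at 1.31, 7.67 and 65.2 CPM in the lowest, median and highest sham library, against 4.37, 8.69 and 25.1 CPM in saline, a log2 fold change of 0.07 (standard error 0.496). The library at 65.2 CPM was sham replicate 11. Tnf fell under the filter on low counts, with 33 counts in the 12 sham libraries, of which 1 was at 0, and 20 in the 8 saline libraries, and its median was 0.115 CPM in both groups. A difference in Tnf was not detectable at this depth.

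Over both batches the medians of the acute phase and inflammation lists stayed near that of all genes. Of 29 acute phase genes 16 were positive, with a median of 0.04 and 0 at an unadjusted p under 0.05. A2m, the alpha-2-macroglobulin that is a major acute phase protein of the rat, was at 0.818, 4.36 and 7.17 CPM in the lowest, median and highest sham library, against 1.25, 2.66 and 7.10 CPM in saline, with a log2 fold change of 0.35 (standard error 0.353). It was -0.18 in batch B, where the groups overlapped, and 1.0 in batch A (unadjusted p = 0.00443, adjusted p = 0.992 from edgeR), where the 7 sham libraries (2.98 to 7.17 CPM) lay above the 3 saline libraries (2.29 to 2.71 CPM). The difference of -1.16 between the batches had an unadjusted p of 0.0905. Hamp, which encodes hepcidin, was at 817 ± 270 CPM in sham and 1010 ± 270 CPM in saline livers (SD, n = 12 and 8), a log2 fold change of -0.24 (standard error 0.224). Of 24 cytokines and chemokines 11 were positive and 0 were at an unadjusted p under 0.05. Their median was 0.05 in batch B and -0.17 in batch A, where 17 of 24 were negative, against 7343 of 15440 genes. In batch A 2 were lower at an unadjusted p under 0.05, against 1.99% of all genes there. Ccl3, a macrophage chemokine, had the lowest p of them at 0.0575, with a log2 fold change of -0.83. Complement and coagulation genes had a median of 0.01 over 44 members. F9, the coagulation factor IX, had -0.37 (unadjusted p = 0.0242). Of 31 genes of the major histocompatibility complex and antigen processing, 19 were positive with a median of 0.05. As with the interferon-stimulated genes, the batches had opposite signs. The median was 0.21 in batch B, with 24 of 31 positive against 7708 of 14347 genes. In batch A it was -0.12, with 25 of 32 negative against 7343 of 15440 genes.

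Bile acid genes gave 1 member with a low p. Cyp8b1, the sterol 12-alpha-hydroxylase that sets the share of cholic acid (gene ID 81924, chromosome 8, 130548418 to 130550388), was at 150, 250 and 348 CPM in the lowest, median and highest sham library, against 192, 398 and 568 CPM in saline. The log2 fold change was -0.63 (standard error 0.207, unadjusted p = 0.00632), -0.49 in batch B, -0.80 in batch A and -0.67 without the 2 libraries that stood apart, with overlap of the groups in each batch. Cyp7a1, the rate-limiting enzyme of bile acid synthesis, stood at 1.09 in batch B and -0.66 in batch A, and at 0.24 over both (standard error 0.421) and -0.01 without the 2 libraries that stood apart. The median of the 24 members tested was 0.10, with 14 positive. Its direction rested on sham replicate 12, since the median was -0.06 without that library and -0.04 without both libraries that stood apart, with 7 positive and 17 negative.

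Sugar genes and NRF2 targets showed scattered low p-values, while heat shock genes were mostly on the higher side. Khk, the ketohexokinase that starts fructose breakdown, had a log2 fold change of 0.35 (unadjusted p = 0.0225) and Slc2a5, a fructose transporter, 0.88 (unadjusted p = 0.0454). Khk was at 0.19 and Slc2a5 at 0.70 without the 2 libraries that stood apart, neither at an unadjusted p under 0.05. Irs1, an adaptor of the insulin receptor, had -0.32 (unadjusted p = 0.0383). The glucose and insulin list as a whole had a median of 0.03, and the values were -0.16 in batch B and 0.20 in batch A. In batch A 28 of 34 members were positive, against 8097 of 15440 genes. Among NRF2 targets, Hmox1, which breaks down heme, had -0.69 (unadjusted p = 0.0195) and Nqo1, a quinone reductase, 0.63 (unadjusted p = 0.0245), or 0.41 without the 2 libraries that stood apart. The median of the list was 0.09. Heat shock genes, whose products are mainly chaperones of the cytosol, were positive for 15 of 18 members with a median of 0.13, and 2 were higher at an unadjusted p under 0.05, against 1.02% of all genes. Without the 2 libraries that stood apart 17 of 18 were positive with a median of 0.21. In that setting 8 were higher at an unadjusted p under 0.05, against 196 of 15130 genes. In batch A 18 of 19 were positive, against 8097 of 15440 genes, with a median of 0.26. There 3 were higher, against 1.83% of all genes. In batch B 10 of 16 were positive, against 7708 of 14347 genes, with a median of 0.06 and 0 higher. The fitted values of LOC108348108, 1.71, and Hspa1a, 1.46, are uncertain, since counting divided reads that matched more than 1 gene. Of 23 immediate early genes, which respond within minutes to growth factors or handling, 17 were positive, against 55.6% of all genes. Their median was 0.32 over both batches. Without the 2 libraries that stood apart 14 were positive and the median was 0.10. In batch B the median of these genes was -0.01, with 11 of 23 positive and 0 higher at an unadjusted p under 0.05. In batch A it was 0.50, with 20 of 23 positive, against 8097 of 15440 genes. There 5 were higher at an unadjusted p under 0.05, against 1.83% of all genes. Fos was at 16.2 CPM in sham replicate 11 and at 0.291 to 5.91 CPM in saline libraries. Glucocorticoid targets had a median of -0.35 in batch B, with 3 of 21 positive, against 7708 of 14347 genes. In batch A their median was 0.15, with 16 of 22 positive.

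Cholesterol synthesis, fatty acid oxidation, drug metabolism and growth factor lists had medians close to 0. The median was 0.06 for 24 genes of cholesterol synthesis, with Mvd, a decarboxylase of the mevalonate pathway, at 0.47 (unadjusted p = 0.0189). For 39 genes of fatty acid oxidation and PPARalpha targets it was -0.04 with 0 members at an unadjusted p under 0.05. Cytochromes P450 of families 1 to 3 had 0.08 over 36 members and conjugating enzymes 0.04 over 37, also with 0. Of the cytochromes P450 26 were positive, against 55.6% of all genes tested. In batch A 4 of 36 were higher at an unadjusted p under 0.05, against 1.83% of all genes there, and in batch B 0 of 34. In the insulin-like growth factor system Igfbp6, a binding protein with preference for IGF-II, was at 2.34 ± 1.53 CPM in sham and 1.19 ± 0.991 CPM in saline livers (SD, n = 12 and 8), a log2 fold change of 1.29 (unadjusted p = 0.00715). Igfbp2, another member, was at 0.65 to 6.58 CPM in sham and 0.336 to 1.94 CPM in saline libraries, a log2 fold change of 0.30 (standard error 0.421). Lipid droplet genes had a median of -0.02 with opposite values for Plin3 and Cidea.

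Cell type markers did not part the groups. Hepatocyte markers summed to 106000 to 229000 CPM in sham and 123000 to 187000 CPM in saline libraries, with a median log2 fold change of 0.00 and 7 of 14 positive. Markers of the extracellular matrix and stellate cells summed to 1430, 1850 and 7740 CPM in the lowest, median and highest sham library, against 1510, 1720 and 2240 CPM in saline, and 7740 CPM was sham replicate 12. Their median was 0.03. Col1a1 was the only 1 of 34 at an unadjusted p under 0.05. Sinusoidal endothelial, cholangiocyte, T and NK cell, and B and plasma cell markers had medians of -0.01, 0.08, 0.05 and 0.08 with 0 members at an unadjusted p under 0.05. Single libraries moved these medians, to -0.08 without sham replicate 12 and 0.38 without saline replicate 9 for cholangiocyte markers, and to -0.14 and -0.15 without sham replicate 11 for T and NK cell and for B and plasma cell markers. Of 5 neutrophil markers 1 was, Mmp9 with a log2 fold change of 0.61, or 0.50 and no longer so without the 2 libraries that stood apart. The pancreatic protease Prss1 was at 0 counts in all 20 libraries. Adipoq, Acta1 and Ckm, markers of fat and muscle, had 10, 6 and 2 counts in all. Other markers of pancreas, fat, muscle and gut were detected, and 3 of 18 passed the filter, with a median of -0.03. Cela1 was at 7.67 to 71.6 CPM in sham and 9.5 to 72 CPM in saline libraries. Cfd was at 6.77 to 36.9 and 11.6 to 44.1 CPM, and Fabp2 at 2.08 to 8.23 and 1.49 to 4.31 CPM. Of the 3 tested, 2 were higher in batch B than in batch A at an adjusted p under 0.05 from edgeR.

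**Figure D5:**
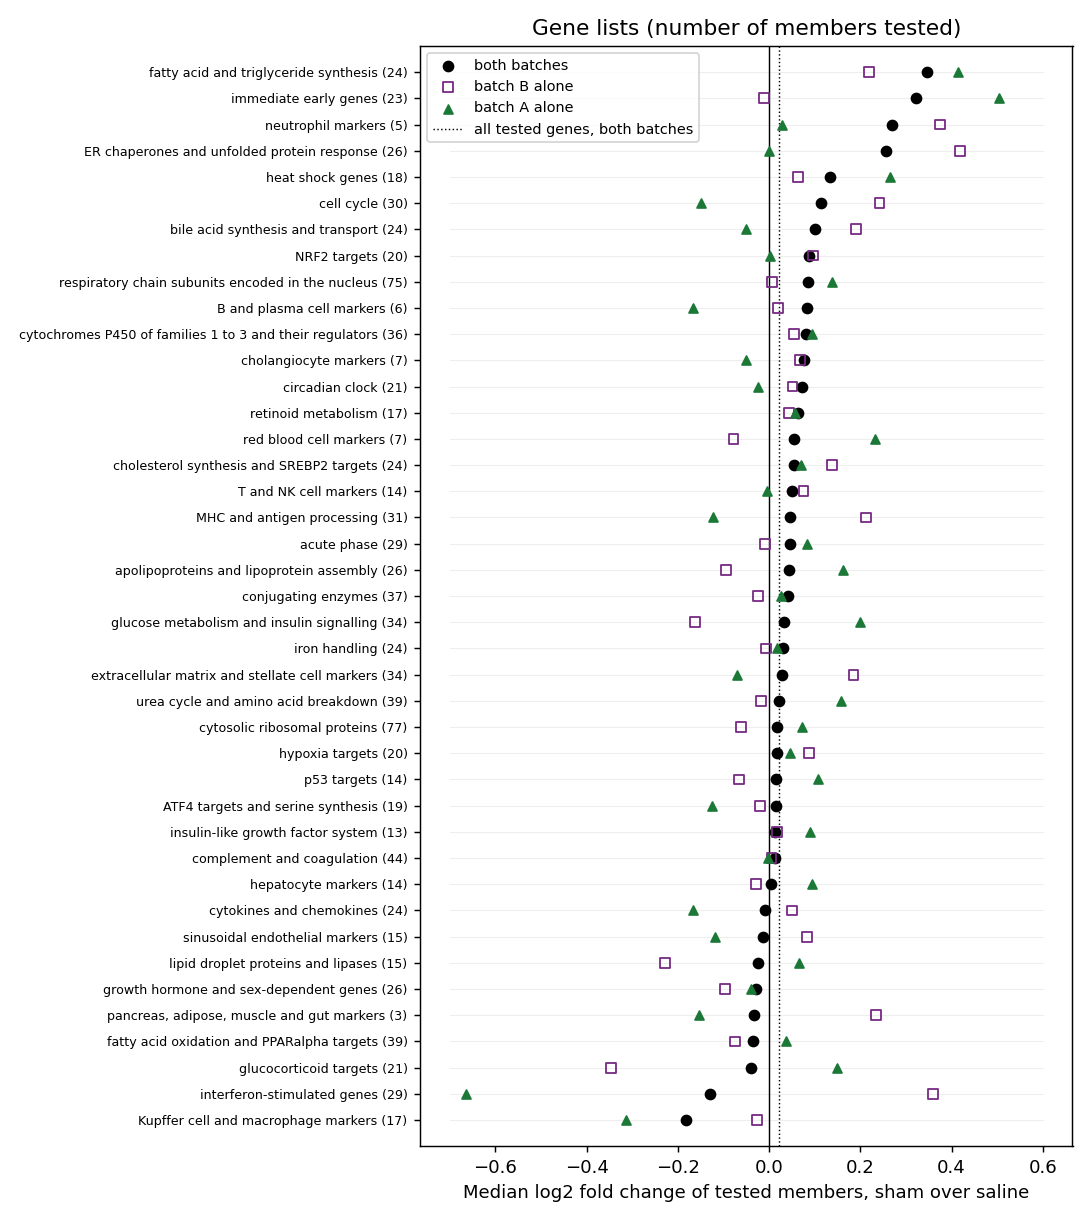
Median log2 fold change of sham over saline (horizontal axis) of the tested members of each of 41 gene lists (vertical axis, number tested in brackets), over both batches (dots), in batch B (open squares) and in batch A (triangles), with the median of all genes, 0.02, dotted. Interferon-stimulated genes at 0.36 in batch B and -0.66 in batch A span the widest range, and fatty acid synthesis at 0.35 has the highest value over both batches.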

How the data were processed

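The deposited table holds estimated counts per gene of liver poly(A) RNA, made by the authors before deposit. Per the submitters' processing notes, the tools were bcl2fastq (2.20.0.422) for base calls, cutadapt (2.5) for trimming, STAR (2.7.2b) for alignment to Rnor_6.0 and featureCounts (1.6.4). By the study's methods, RefSeq exons were counted by strand, and a read that matched several places or genes was divided between them. Members of near-identical gene families therefore share reads. The values were not normalized, and 15.7% were not whole and were rounded here. Genes were kept by edgeR's filterByExpr (15016 of 38513), TMM set the library scaling, and edgeR 4.0.16 (R 4.3.3) fitted group and batch by quasi-likelihood with robust estimation, with p-values adjusted over all genes tested by the method of Benjamini and Hochberg. CPM values are from the same fit. The study's methods name DESeq2, which was an alternative here (1.42.0), as were limma 3.58.1, sva 3.50.0, other scalings and filters, the other libraries of the series in the fit, each batch alone, the replicate number as a block, and leaving out each library. The scripts were tested on simulated data. No 2 libraries agreed within sampling noise (lowest chi-square per gene 27.4).

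The comparison, the 41 gene lists and the rule for named genes were chosen with earlier results of these data known. The rule takes genes past the test, the 10 lowest unadjusted p in each direction (average log2 CPM 1 or more), the 3 lowest p within each list, and Tnf, Il1b and Fgf21. Other members named, and genes shown per library, were chosen after their values were seen. Overlap of the groups was examined for named genes only, so no share over all genes stands beside it. No set test was run. Of 1067 list symbols 1062 were found. Gene positions are in Rnor_6.0 and promoter sequences in GRCr8.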

Additional observations from a re-analysis of the deposited data

Results flagged for a closer look

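Each library group of one batch with 4 to 10 samples was examined for a single sample far from the others, for 15 genes and 5 list sums, which made 60 groups. Chance marks about 1 in 20 such groups where values follow a normal distribution and items are chosen without their values. Neither was given here, since CPM values were used and Fasn and Isg15 were chosen after their values were seen. The number marked is therefore not compared with that rate. In all 6 were marked, each in batch B with 5 libraries in the group. Fasn was at 145 CPM in sham replicate 8, against 23.9 to 36.9 CPM in the other sham libraries. The saline-group also held 1 such library, with Fasn at 119 CPM in saline replicate 7 and at 26.2 to 36.1 CPM in the others. Isg15 was at 437 CPM in sham replicate 9, against 10.6 to 23.2 CPM in the other sham libraries. In the saline-group Isg15 was at 45.4 CPM in saline replicate 5 and at 8.51 to 11.5 CPM in the others. Il1b was low in saline replicate 6, at 2.87 CPM against 6.50 to 9.03 CPM. Extracellular matrix and stellate cell markers summed to 7740 CPM in sham replicate 12, against 1430 to 1920 CPM in the other sham libraries.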

How the results depend on the processing

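The count of 0 genes between sham and saline held under every alternative run, including leaving out each library in turn (0 to 0). The number of genes at an unadjusted p under 0.05, 243 here, was 414 with DESeq2, 552 with limma-voom, 807 with no filter on low counts, 430 with all 69 libraries in the fit, 485 with 2 surrogate variables and 591 in batch A alone. It was 565 with the replicate number as a block (replicate block). Leaving out 1 library gave 194 (without saline replicate 6) to 391 (without sham replicate 11), with 373 without sham replicate 12. The replicate numbers do not pair the samples, since same-numbered libraries correlated at -0.325 to 0.108 and 1 of 5 pairs within a batch was the best match of its number. Under that block 45 genes passed in batch B, where only replicate numbers 8 and 9 occur in both groups. The group value there rests on these numbers alone, and saline replicate 9 is one of the libraries that stood apart. The 45 genes are therefore not a result of 5 against 5 libraries. Over both batches the value of Tdrd15 turned to 0.00658 under the block. With DESeq2 15 genes passed in batch A, 3 higher (Fasn among them) and 12 lower in sham (Isg15, Herc6, Uba7 and Gbp3 among them), 2 passed in batch B (Derl3 and LOC103694875) and 3 in the difference between batches. Leaving out 1 library gave 0 to 1 genes in batch A, 0 to 0 in batch B and 0 to 0 for the difference. The cause was not tested. Of 1260 medians of lists under the alternatives 1257 moved by less than the spread between libraries, and the other 3 were batch values of lipid droplet genes (-0.23 in batch B), ER genes (0.000115 in batch A) and markers of pancreas, fat, muscle and gut (0.23 in batch B). This spread is the SD of a list's mean between single libraries, a wide margin for a median between groups. Interferon-stimulated genes, with an SD of 0.634, count among the 1257, although their median changed sign from batch A (-0.66) to batch B (0.36). Most alternatives also shared nearly all libraries, so the count of 1257 does not show that the medians are stable. Of 700 values of the 20 genes with the lowest p, 699 kept their direction and their side of the threshold. The median of all genes lay between -0.04 and 0.03 under every scaling. With 5 against 5 and 7 against 3 libraries, values within a batch are the least precise, and genes of low counts, Tnf included, are limited by depth.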

Other observations

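Onecut1, a hepatocyte transcription factor, had opposite values in the batches. Its log2 fold change of sham over saline was -2.94 in batch B and 2.04 in batch A, a difference of -4.95 (unadjusted p = 0.00235 from edgeR), which did not pass the adjusted test. Without sham replicate 12 and saline replicate 9 it was -1.80 in batch B, and over both batches it was -0.09, against -1.25 with them. Over both batches it ranged from 8.38 to 410 CPM in sham (median 34.9) and from 6.63 to 497 CPM in saline libraries (median 60.2). Lox, the lysyl oxidase that links collagen, was at 0.08 in batch B and -2.16 in batch A on the same scale, with 237 CPM in its highest saline library and 70.9 CPM in its highest sham library.

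Log2 fold changes of sham over saline were nearly level, with medians of 0.04, 0.02, 0.02 and 0.00 in 4 equal groups of genes ordered by exon length, shortest first. In sham replicate 12 the median deviation from the other batch B libraries was -0.25, -0.22, -0.14 and 0.00 in the same order. For batch B over batch A the medians were 0.315, 0.04, 0.03 and 0.03.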
